A study of Mus musculus with 6 samples.

Results

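The flavin-containing monooxygenases of mouse liver were followed through carbon tetrachloride injury as 4 genes, Fmo1, Fmo2, Fmo4 and Fmo5, taken by their symbols from the 55802 rows of a gene count table. All 4 had a row, and all 4 were among the 15579 genes that passed the filter on low counts. The livers came from wild-type (WT) C57BL/6 mice, 3 libraries from mice that received CCl4 and 3 from mice that received oil, the controls. CCl4 is a solvent that hepatocytes turn into a radical and that is used to injure and scar the rodent liver. The labels give no dose, duration, age or sex, and they do not say whether each library is a separate animal, so the p-values below measure the spread between libraries, which may in part be technical. Library totals lay between 18929972 and 20042731 counts.

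Flavin-containing monooxygenases are membrane enzymes of the endoplasmic reticulum that carry FAD, take electrons directly from NADPH and add oxygen to nitrogen or sulfur atoms of drugs, dietary amines and sulfides. They need no separate reductase, unlike the cytochromes P450 of the same membrane. FMO1 accepts a broad range of substrates and remains a liver enzyme in adult mice, FMO2 is best known from the lung of many mammals, and FMO4 is the least characterised of these proteins. FMO5 is atypical, since it acts mainly as a Baeyer-Villiger enzyme that inserts oxygen beside a carbonyl group, and mice that lack it stay leaner with age.

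The starts of the coding sequences are shown because they hold the site these enzymes share, the glycine-rich loop near the start of the protein that binds FAD. The 60 coding bases below are from the GENCODE M21 transcript with the longest open frame, and capitals mark the in-frame Gly-x-Gly-x-x-Gly codons that a search found.
Fmo1: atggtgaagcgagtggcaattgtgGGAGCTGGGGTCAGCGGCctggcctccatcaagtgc
Fmo2: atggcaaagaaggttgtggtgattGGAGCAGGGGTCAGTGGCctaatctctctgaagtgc
Fmo4: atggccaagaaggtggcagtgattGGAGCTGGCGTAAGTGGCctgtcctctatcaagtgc
Fmo5: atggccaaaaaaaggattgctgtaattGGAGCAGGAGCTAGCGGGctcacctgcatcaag
The motif covered codons 9 to 14 in Fmo1, Fmo2 and Fmo4 and codons 10 to 15 in Fmo5. Coding lengths were 1599 bases for Fmo1, 1608 for Fmo2, 1683 for Fmo4 and 1602 for Fmo5. Aligned over their whole coding sequences, the genes were 61.3 to 65.1% identical base by base, with Fmo2 and Fmo4 the closest pair and Fmo1 and Fmo5 the farthest. The longest identical run in these alignments was 24 bases. Of all windows of 50 bases in the members' annotated transcripts, 0 occurred in a transcript of another Fmo gene. Windows shared with genes outside the family made up 7.02% of Fmo1 (5.34% at 100 bases) and 0.434% of Fmo5 (0% at 100 bases), and 0% of Fmo2 and Fmo4. No annotated gene overlapped any of the members on either strand. How the authors' counting treated reads that map to several places was not given, which touches Fmo1 more than the other members.

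CCl4 replicate 3 stood apart from CCl4 replicates 1 and 2 over all genes. The chi-square per gene was 25.8 and 20.1 for the pairs that include it, 5.71 for the pair without it and 8.52 to 12.2 for control pairs. Hepatocyte markers were abundant in both groups (10 genes summed to between 121876 and 130220 CPM in CCl4 livers and between 118009 and 124017 CPM in controls), as the label liver implies. CPM are counts per 1000000 counts of the library after TMM scaling, and log2 fold changes are CCl4 over control.

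Fmo4 and Fmo5 were higher in CCl4 livers, while Fmo1 and Fmo2 did not pass the test. The calls are those of edgeR's quasi-likelihood test at a Benjamini-Hochberg adjusted p under 0.05 over all genes tested. At that threshold 41.3% of all genes were called, 21.2% higher and 20.1% lower, against 2 of the 4 members called higher and 0 called lower. The groups did not overlap for the same 2 members, both higher in CCl4 livers, and for 54.0% of all genes, with CCl4 higher in 27.6%. In bulk tissue, a change in the RNA of each cell and a change in the number of cells that hold it cannot be told apart.

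Fmo5 (ENSMUSG00000028088, chromosome 3), the Baeyer-Villiger enzyme, stood at 763, 739 and 607 CPM in CCl4 replicates 1, 2 and 3, against 539, 523 and 556 CPM in control replicates 1, 2 and 3. These values rest on 12358 to 15147 counts in CCl4 livers and 9684 to 10496 counts in controls. Every CCl4 library lay above every control library, and CCl4 replicate 3 lay nearest to the controls. Fmo5 averaged 703 ± 84 CPM in CCl4 livers and 540 ± 16.6 CPM in control livers (SD, n = 3 each). Its rise had a log2 fold change of 0.38 (SE 0.09, edgeR adjusted p = 0.00655), which is 1.30-fold with a 95% interval of 1.14 to 1.49. Without CCl4 replicate 3 the log2 fold change was 0.48, with an adjusted p of 1.01e-04 from edgeR.

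Fmo4 (ENSMUSG00000026692, chromosome 1) stood at 18.2, 18 and 24.7 CPM in CCl4 replicates 1, 2 and 3, against 11.4, 12.7 and 12.9 CPM in control replicates 1, 2 and 3. The groups did not overlap, and here CCl4 replicate 3 was the highest library. These values rest on 362, 364 and 503 counts in CCl4 livers and 214, 235 and 243 counts in controls. Fmo4 averaged 20.3 ± 3.8 CPM in CCl4 livers and 12.3 ± 0.812 CPM in control livers (SD, n = 3 each). It had the largest log2 fold change of the members, 0.72 (SE 0.13, adjusted p = 0.002 by edgeR), which is 1.65-fold with a 95% interval of 1.35 to 2.02. Of all genes tested, 84.4% had a lower log2 fold change than Fmo4. Without CCl4 replicate 3 its log2 fold change was 0.56, with an adjusted p of 7.43e-04 from edgeR.

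Fmo1 (ENSMUSG00000040181, chromosome 1), the broad-range liver enzyme, stood at 196, 198 and 247 CPM in CCl4 replicates 1, 2 and 3, against 180, 197 and 187 CPM in control replicates 1, 2 and 3. CCl4 replicate 1 lay within the control range, CCl4 replicate 2 just above it and CCl4 replicate 3 clearly above it. The means were 214 ± 28.6 CPM in CCl4 livers and 188 ± 8.68 CPM in controls (SD, n = 3 each). The log2 fold change was 0.18 (SE 0.09, adjusted p = 0.141 by edgeR), and the 95% interval of 0.984-fold to 1.31-fold includes no change. Without CCl4 replicate 3 it was 0.07 (edgeR adjusted p = 0.429). Fmo1 was called higher at 0.27 with upper quartile scaling (adjusted p = 0.0447) and at 0.33 with library size alone (adjusted p = 0.0309). Under those scalings the typical gene moved too, to a median of 0.0872 with upper quartile scaling and 0.147 with library size alone, against 0.00056 with TMM.

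Fmo2 (ENSMUSG00000040170, chromosome 1), the form known from lung, stood at 13.8, 12.7 and 29.4 CPM in CCl4 replicates 1, 2 and 3, against 13.5, 15.2 and 9.97 CPM in control replicates 1, 2 and 3. CCl4 replicates 1 and 2 fell within the control range, and CCl4 replicate 3 stood well above all other libraries. In counts it was 599, against 274 and 256 in CCl4 replicates 1 and 2 and 188 to 281 in controls. The means were 18.6 ± 9.37 CPM in CCl4 livers and 12.9 ± 2.66 CPM in controls (SD, n = 3 each). The log2 fold change of 0.53 (SE 0.40, edgeR adjusted p = 0.349) had the widest interval of the members, 0.706-fold to 2.97-fold. Without CCl4 replicate 3 it was 0.04 (edgeR adjusted p = 0.869).

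**Figure D1:**
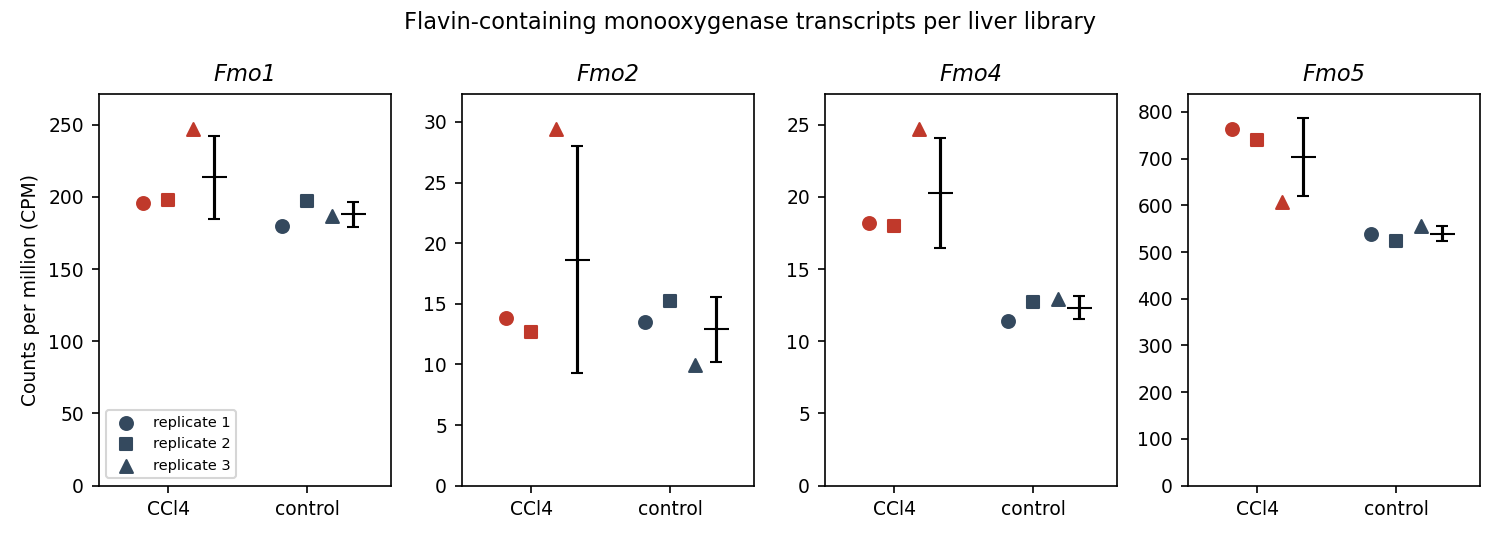
CPM (linear axis from 0) of Fmo1, Fmo2, Fmo4 and Fmo5 in each library, CCl4 left and control right, with symbols for the replicate number and bars for the mean and SD (n = 3). CCl4 replicate 3 is the highest CCl4 library for Fmo1, Fmo2 and Fmo4 and the lowest for Fmo5, and the groups separate for Fmo4 and Fmo5.

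The members on chromosome 1 and Fmo5 thus differed in where CCl4 replicate 3 lay. Its log2 CPM exceeded the mean of CCl4 replicates 1 and 2 by 1.15 for Fmo2, 0.45 for Fmo4 and 0.32 for Fmo1, and for Fmo5 the difference was -0.31. Over all genes the median of this difference was 0.00, and 98.9% of genes had a smaller value than Fmo2, 92% than Fmo4, 87.4% than Fmo1 and 12.1% than Fmo5. This library was the highest of its group for 38.8% of all genes and the lowest for 38.2%.

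**Figure D2:**
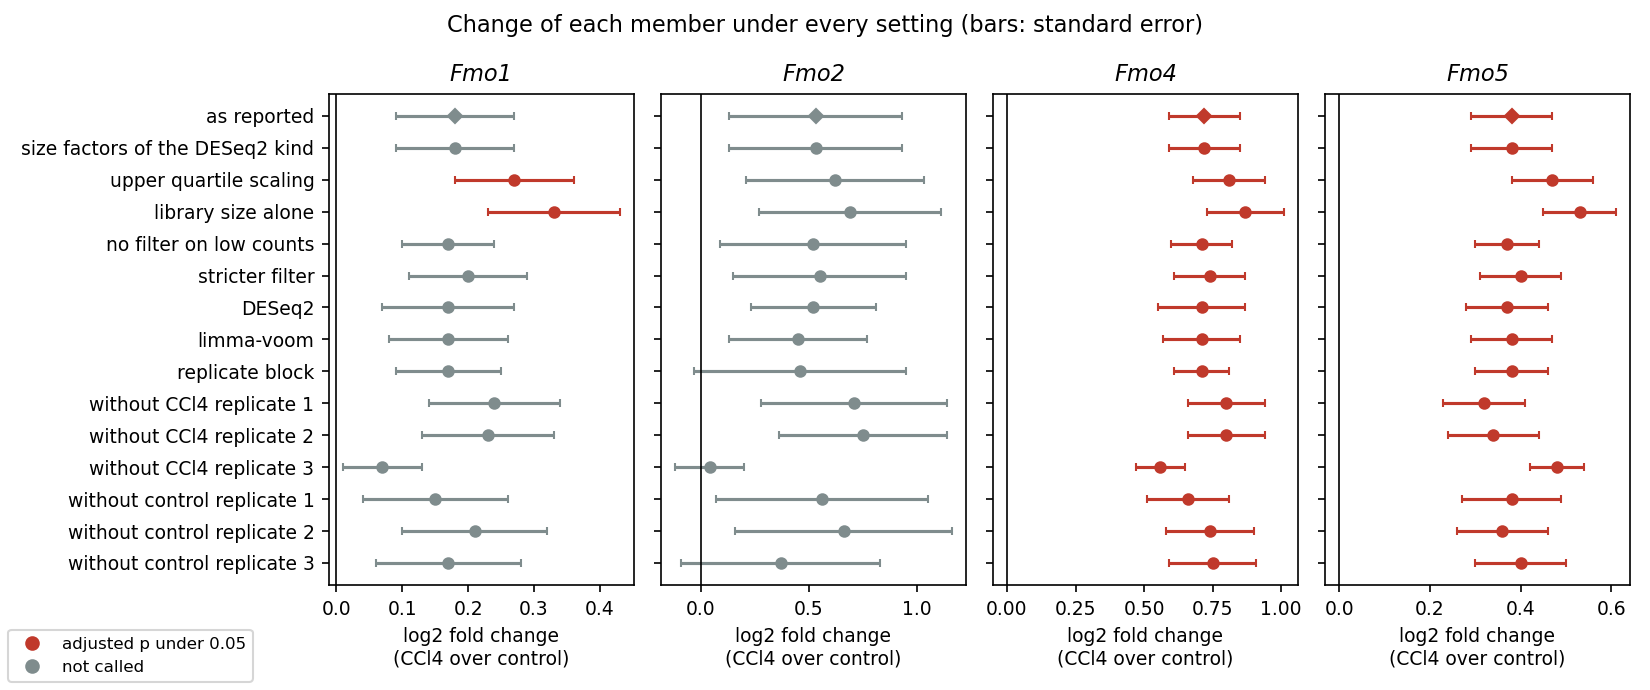
Log2 fold change (CCl4 over control) of each member, with its standard error as bars, as reported (diamond) and under 14 other settings (circles). Red marks an adjusted p under 0.05, which holds for Fmo4 and Fmo5 under every setting shown and for Fmo1 under upper quartile scaling and library size alone.

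Ratios between members within a library do not depend on how libraries are scaled. For the ratio of Fmo1 counts to Fmo4 counts the values were 10.8, 11 and 9.98 in CCl4 replicates 1, 2 and 3, against 15.8, 15.5 and 14.6 in control replicates 1, 2 and 3. The groups did not overlap, and the mean log2 ratio was 3.40 ± 0.07 in CCl4 livers and 3.94 ± 0.06 in controls (SD, n = 3 each). The difference of -0.53 had the smallest p that an exact two-sided permutation test of 3 against 3 libraries can give, 0.1, and an adjusted p of 0.6 over the 6 pairs of members compared. The groups overlapped for the other 5 pairs, with exact permutation p-values of 0.2 to 0.9. Fmo4 relative to Fmo5, for example, was 0.0239, 0.0244 and 0.0407 in CCl4 livers and 0.0211, 0.0243 and 0.0232 in controls.

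Levels of different members are compared per kilobase of exon annotated in GENCODE M21, a scale on which the order was Fmo5, Fmo1, Fmo4 and Fmo2 in every library. In CPM without length, Fmo2 exceeded Fmo4 in CCl4 replicate 3 (29.4 against 24.7) and in control replicates 1 (13.5 against 11.4) and 2 (15.2 against 12.7). Fmo4 exceeded Fmo2 in the other libraries, so the order of these genes rests on the length scale. Fmo5 stood at 124 ± 14.8 CPM per kilobase in CCl4 livers and 95.1 ± 2.92 in controls, and Fmo1 at 33.9 ± 4.54 and 29.9 ± 1.38 (SD, n = 3 each). Fmo4 followed at 5.48 ± 1.03 CPM per kilobase in CCl4 livers and 3.32 ± 0.219 in controls, and Fmo2 at 3.32 ± 1.67 and 2.29 ± 0.474. Fmo5 made up 74.2 ± 5.64% of the summed level of the 4 genes in CCl4 livers and 72.8 ± 1.47% in controls, a difference within the spread of the libraries. By library its share was 77.7, 77.2 and 67.7% in CCl4 replicates 1, 2 and 3, and 73.6, 71.1 and 73.7% in control replicates 1, 2 and 3. CCl4 replicates 1 and 2 thus lay above every control, and CCl4 replicate 3 below every control. The share of Fmo1 was 20.5 ± 3.74% in CCl4 livers and 22.9 ± 1.1% in controls. That of Fmo4 was 3.31 ± 0.784% and 2.55 ± 0.142%, and that of Fmo2 2.03 ± 1.12% and 1.76 ± 0.386%. The Fmo1 share was 18, 18.6 and 24.8% in CCl4 replicates 1, 2 and 3 and 22.2 to 24.2% in controls. For Fmo4 it was 2.84, 2.88 and 4.22% in CCl4 replicates 1, 2 and 3 and 2.38 to 2.64% in controls, without overlap. The summed level was 173, 169 and 158 CPM per kilobase in CCl4 replicates 1, 2 and 3 and 129, 130 and 133 in control replicates 1, 2 and 3. Of 4 other genes of the mouse Fmo clusters that were looked at, Fmo6 had 2 counts in the CCl4 group and 1 in the controls, and Fmo9, Gm4846 and Gm4847 had 0 in both, where 3 counts in a library would be 0.147 to 0.162 CPM (counting error only).

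**Figure D3:**
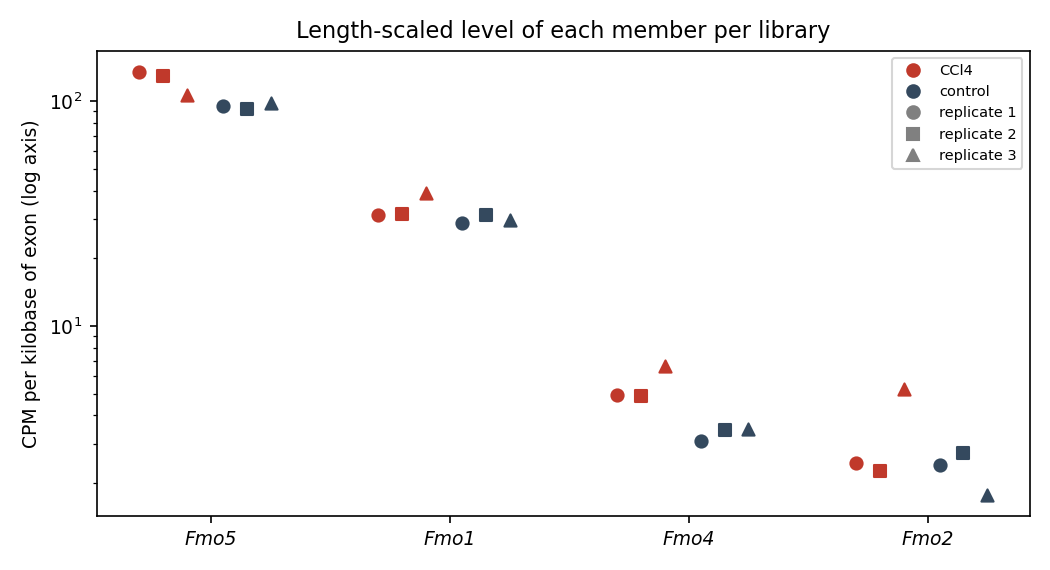
CPM per kilobase of annotated exon (log axis) of each member in each library, CCl4 in red on the left of each pair and control in dark blue on the right, with symbols for the replicate number. Fmo5 is highest and Fmo2 lowest in every library, and Fmo4 lies close above Fmo2.

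Windows from 250 bases before to 50 bases after the start of transcription were at hand in RefSeq (GRCm38.p6) for 3 members. Those of Fmo4 and Fmo5 are printed because both genes were called higher in CCl4 livers. Capitals mark matches, on either strand, to any of 5 motifs searched, TTCNNNGAA (the STAT type), TGACNNNGC (the NRF2 type), TGTTTAC (the forkhead type), AGGTCA (the nuclear receptor core) and TATAAA.
Fmo4, chr1:162812500-162812799, minus strand: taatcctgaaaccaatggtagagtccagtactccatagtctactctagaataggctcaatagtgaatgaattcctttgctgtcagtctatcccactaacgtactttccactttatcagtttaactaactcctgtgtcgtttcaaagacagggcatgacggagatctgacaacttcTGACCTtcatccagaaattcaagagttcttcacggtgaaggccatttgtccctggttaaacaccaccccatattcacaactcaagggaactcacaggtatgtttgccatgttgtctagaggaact
Fmo5, chr3:97628769-97629068, plus strand: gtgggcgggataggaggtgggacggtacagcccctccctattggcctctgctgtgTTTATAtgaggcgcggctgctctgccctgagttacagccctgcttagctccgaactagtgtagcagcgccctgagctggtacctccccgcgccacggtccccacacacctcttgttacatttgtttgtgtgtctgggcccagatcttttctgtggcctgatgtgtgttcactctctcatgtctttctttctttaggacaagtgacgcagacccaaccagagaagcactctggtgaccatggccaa
The Fmo4 window held AGGTCA once, on the opposite strand, starting 75 bases before the start. The Fmo5 window held TATAAA once, also on the opposite strand, 195 bases before the start. Among 32851 windows of the same length in the table, 16.3% held AGGTCA and 13.6% held TATAAA, 8.3% held TTCNNNGAA, 12.4% TGACNNNGC and 3.65% TGTTTAC. No match was common to the Fmo4 and Fmo5 windows. Fmo2 has 2 windows in the table. The first held none of these motifs, and the second held TTCNNNGAA, TGTTTAC and AGGTCA once each.

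Fmo4, Fmo1 and Fmo2 follow one another on the minus strand of chromosome 1, with gaps of 15.6 and 7.71 kilobases in GENCODE M21. Of these 3 genes Fmo4 was the one called. Prrc2c, the nearest tested gene on the side of Fmo4 at 52.6 kilobases, was lower at 69.9 ± 2.5 CPM in CCl4 livers and 84.2 ± 1.38 in controls (log2 fold change -0.27, edgeR adjusted p = 0.00249, and -0.12 with adjusted p = 0.0695 under library size alone). Prrx1, a mesenchymal homeobox factor 346 kilobases from Fmo2 on the other side, was higher at 2.88 ± 0.231 CPM in CCl4 livers and 1.11 ± 0.407 CPM in controls (log2 fold change 1.38, edgeR adjusted p = 0.00239). Beyond them lie Vamp4, 194 kilobases from Fmo4, and Gorab, 486 kilobases from Fmo2. Vamp4 (0.22) and Gorab (0.26) were not called, with edgeR adjusted p-values of 0.0581 and 0.205, although Vamp4 was called higher with library size alone, upper quartile scaling or the stricter filter.

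Fmo5 lies alone on chromosome 3, and both of its nearest tested neighbours were also higher. Prkab2, which encodes a regulatory subunit of the AMP-activated kinase and lies 2.91 kilobases away, averaged 7.88 ± 0.873 CPM in CCl4 livers and 3.97 ± 0.25 in controls (log2 fold change 0.99, edgeR adjusted p = 4.03e-04). Chd1l, a chromatin remodeller 18.6 kilobases away on the other side, averaged 14.9 ± 0.816 CPM in CCl4 livers and 10.8 ± 0.782 CPM in controls (0.46, edgeR adjusted p = 0.0033). One tested gene further out, Pde4dip, 34.5 kilobases away, was lower (-0.50, edgeR adjusted p = 1.75e-04). Bcl9, 331 kilobases away on the other side, was not called (-0.02, edgeR adjusted p = 0.927).

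Genes whose profile over the 6 libraries lay closest to each member were found from the root mean square difference of centred log2 CPM, over 12279 genes with a mean of at least 1 CPM. For Fmo1 these were Pisd (0.012), Wdr34 (0.025) and Zdhhc8 (0.033), none of them called. For Fmo4 they were Napepld (0.032), Scarf2 (0.046) and Rftn2 (0.057), all called higher. The calls of Napepld and Rftn2 did not hold in DESeq2 (adjusted p = 0.0683 and 0.16) and without single libraries: for Napepld without control replicate 1 (edgeR adjusted p = 0.0605), and for Rftn2 without CCl4 replicates 2 or 3 or any 1 of the controls (edgeR adjusted p 0.0607 to 0.0934). For Fmo5 they were Smim8 (0.038), Mfsd6 (0.038) and Mical2 (0.041), a flavin monooxygenase that acts on actin. Mical2 was called higher at 0.38, Mfsd6 at 0.36 and Smim8 was not called (0.34, edgeR adjusted p = 0.0534), although it was without CCl4 replicate 3 (0.43, edgeR adjusted p = 0.0198), with upper quartile scaling, with library size alone and with the stricter filter (edgeR adjusted p 0.0105 to 0.0451). Mfsd6 lost its call without CCl4 replicate 1, CCl4 replicate 2 or control replicate 2 (edgeR adjusted p 0.0546 to 0.0649). Fmo2 had no profile within 0.1 of its own, where Fmo1 had 331, Fmo5 182 and Fmo4 33. Among the closest to Fmo2 were Ecm2 (0.151) and Bhmt (0.151), neither of them called. Bhmt, the betaine-homocysteine methyltransferase of hepatocytes, stood at 2099, 2327 and 4138 CPM in CCl4 replicates 1, 2 and 3 and at 2295, 2437 and 1911 in control replicates 1, 2 and 3, so that CCl4 replicate 3 was its highest library as well.

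Transcripts of genes of NADPH, riboflavin and FAD supply were also counted, whichever compartment of the cell they serve, so not all need supply these enzymes. Of 12 tested genes of NADPH supply, 4 were higher and 3 lower (median log2 fold change -0.06, against 0.00056 over all genes), and 6 were lower without CCl4 replicate 3. Pgd, of the pentose phosphate pathway, rose to 70.9 ± 6.39 CPM in CCl4 livers, against 44.5 ± 0.847 in controls (0.67, edgeR adjusted p = 9.35e-05), and the malic enzyme gene Me1 was lower at 122 ± 19 CPM in CCl4 livers and 229 ± 32.2 CPM in controls (-0.91, edgeR adjusted p = 0.00214). Of 5 genes of riboflavin and FAD supply, 0 were higher and 2 lower (median 0.01), among them the folate and FAD carrier gene Slc25a32 (-0.58, edgeR adjusted p = 4.16e-04). The count of lower genes was 1 with upper quartile scaling and with library size alone.

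Of 6 other FAD monooxygenases, 2 were higher and 2 lower (median -0.08). Mical1 (1.01) and Mical2 were the higher ones, and Kmo (-0.33), the kynurenine hydroxylase, and Mical3 (-0.32) the lower ones. With library size alone, 0 were lower, Kmo having an adjusted p of 0.0725 and Mical3 of 0.0597. Of 6 genes of microsomal electron transfer to P450, 2 were higher and 3 lower (median -0.13), with 1 lower under library size alone. The reductase gene Por was higher at 255 ± 21.1 CPM in CCl4 livers and 200 ± 25.4 in controls (0.35, edgeR adjusted p = 0.0201). That call was lost without CCl4 replicate 1, CCl4 replicate 3, control replicate 1 or control replicate 3 (edgeR adjusted p 0.0519 to 0.0686). The count of higher genes in this list was 1 in DESeq2 and 0 or 1 with any 1 library left out. Cyb5b, also in this list, encodes the cytochrome b5 of the outer mitochondrial membrane, not the microsomal one. It was lower at 477 ± 34.7 CPM in CCl4 livers and 767 ± 68.7 CPM in controls (-0.68, edgeR adjusted p = 2.27e-04). The microsomal form, Cyb5a, differed less, at 606 ± 37.5 CPM in CCl4 livers and 695 ± 36.2 CPM in controls (-0.20, edgeR adjusted p = 0.0465).

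Among 13 other oxidases and hydrolases of drug metabolism outside P450, 3 were higher and 5 lower (median -0.16), with 3 lower without CCl4 replicate 2 or control replicate 3, with upper quartile scaling and with library size alone. The aldehyde oxidase gene Aox3, which acts on nitrogen heterocycles, stood at 316, 341 and 361 CPM in CCl4 livers and 1007, 1079 and 1072 CPM in controls (-1.63, edgeR adjusted p = 1.05e-06). Cbr1, a carbonyl reductase, was higher (0.56, edgeR adjusted p = 1.90e-04). Another 8 genes were listed for the reduction of sulfoxides and N-oxides. They include Cyb5b and Cyb5r3, electron carriers that are also in the list of microsomal electron transfer. Of the 8, 1 was higher, Msrb3 (0.58), and 2 lower, Cyb5b and Marc1 (-0.57), and the median was -0.07.

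FMO1 can oxidise hypotaurine, and of 8 tested genes from cysteine to taurine 0 were higher and 3 lower (median -0.23). Cdo1, the cysteine dioxygenase at the start of that route, fell to 1208 ± 37.8 CPM in CCl4 livers, against 1683 ± 111 in controls (-0.48, edgeR adjusted p = 5.64e-04). The split of this list turned with the scaling, to 2 higher and 2 lower with upper quartile and 3 higher and 1 lower with library size alone. Of 14 genes of choline and methylamine handling, 2 were higher and 4 lower (median -0.14), and the lower ones numbered 2 with library size alone. The choline transporter-like gene Slc44a2 was higher at 19.9 ± 1.93 CPM in CCl4 livers and 10.8 ± 1.44 CPM in controls (0.88, edgeR adjusted p = 3.01e-04). The higher genes numbered 1 in DESeq2 and without CCl4 replicate 1, CCl4 replicate 2, control replicate 1 or control replicate 2.

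**Figure D4:**
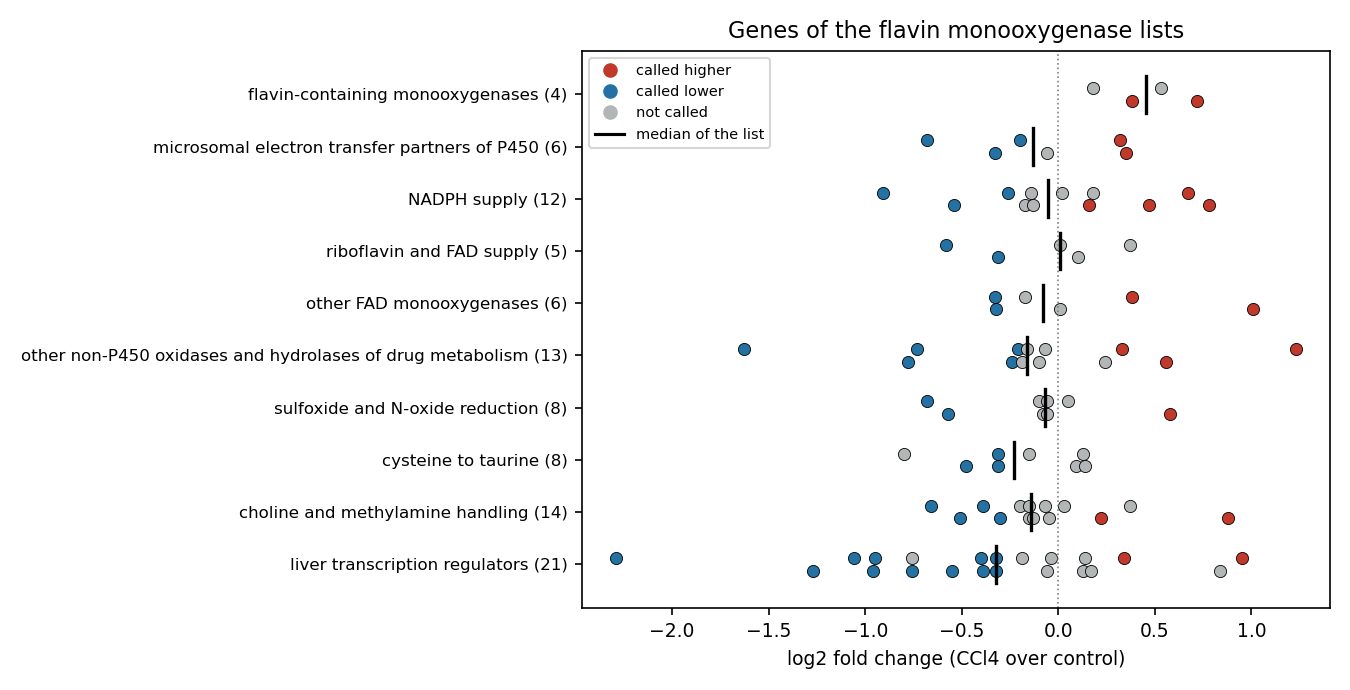
Log2 fold change (CCl4 over control) of every tested gene in the lists around the flavin-containing monooxygenases, 1 point per gene, with black bars for list medians and the number of genes in brackets. All 4 members lie to the right of 0, near which the median over all genes lies (0.00056), and 2 of them are called higher. Fmo1 (0.18) and Fmo2 (0.53) are not called, and without CCl4 replicate 3 they are at 0.07 and 0.04. The medians of the other lists lie between -0.32 and 0.01, and these lists also hold genes to the right of 0. Whether the members differ from the other lists was not tested.

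Among 21 transcription regulators, 11 were lower and 2 higher (median -0.32), with 7 lower without CCl4 replicate 2 and 4 higher with upper quartile scaling or library size alone. Ppara, the fatty acid receptor, was lower (-1.27, edgeR adjusted p = 3.91e-06) and Nfe2l2, which encodes NRF2, higher (0.34, edgeR adjusted p = 0.00118). Sex differences in mouse liver follow the pattern of growth hormone, and Fmo1 is known to be more abundant in females. Of 15 genes biased to male liver, 15 were lower (median -2.49), among them Slco1a1 (-4.56, edgeR adjusted p = 1.04e-06). Of 9 tested genes biased to female liver, 5 were higher and 0 lower (median 2.36), among them Prom1 (2.66, edgeR adjusted p = 1.14e-04), which biliary cells also express. CCl4 replicate 3 was the lowest library in the summed level of the male-biased genes, at 3392 CPM, with 6393 and 7115 CPM in CCl4 replicates 1 and 2 and 22525 to 27841 CPM in controls. The female-biased genes summed to 417, 328 and 422 CPM in CCl4 replicates 1, 2 and 3 and to 84.1 to 155 CPM in controls. CCl4 replicate 3 also stood apart in other lists. Genes of choline and methylamine handling summed to 5661, 5936 and 8494 CPM in CCl4 replicates 1, 2 and 3, and those of pericentral hepatocytes to 3957, 3841 and 5327 CPM. Whether these sums bear on the values of Fmo1, Fmo2, Fmo4 and Fmo5 in CCl4 replicate 3 was not tested.

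Markers of other cell types also moved between the groups in which Fmo4 and Fmo5 rose. Of 12 stellate cell and fibroblast markers, 10 were higher and 0 lower, with summed levels of 1243 to 1352 CPM in CCl4 livers and 350 to 426 CPM in controls. Of 10 macrophage and monocyte markers, 9 were higher and 0 lower (704 to 796 CPM in CCl4 livers, 258 to 321 CPM in controls). Of 5 tested biliary markers 4 were higher (252 to 335 CPM in CCl4 livers, 50.4 to 94.2 CPM in controls). Most of these sums came from Spp1 alone, at 224 to 303 CPM in CCl4 livers and 41.8 to 76.3 CPM in controls. All 5 tested neutrophil markers were higher (28.7 to 32.6 CPM in CCl4 livers, 6.84 to 10.4 CPM in controls). Of 10 endothelial markers, 0 were higher and 1 lower (285 to 315 CPM in CCl4 livers, 302 to 320 CPM in controls), a count that went to 2 higher and 0 lower with upper quartile scaling and 3 higher and 0 lower with library size alone. No endothelial marker was lower in DESeq2, with the stricter filter or without CCl4 replicate 2, CCl4 replicate 3, control replicate 1 or control replicate 2. Of these markers 1 was higher in DESeq2, in limma-voom, with the replicate block and without control replicate 1. Of 8 lymphocyte markers, 1 was higher and 0 lower (10.9 to 13.6 CPM in CCl4 livers, 11 to 12.9 CPM in controls). However, 0 were higher in DESeq2, with no filter on low counts, with the replicate block or with any 1 library left out. With the replicate block and without CCl4 replicate 3, 1 lymphocyte marker was lower. No marker of these lists was at 0 in all libraries. The 10 hepatocyte markers gave 2 higher and 3 lower calls (median -0.02), with 4 higher under library size alone and 1 higher without CCl4 replicate 2, control replicate 1 or control replicate 3. Of 12 genes of pericentral hepatocytes, 0 were higher and 9 lower (median -0.81), and of 10 of periportal hepatocytes 2 were higher and 3 lower (median 0.04). The periportal genes called lower numbered 0 without CCl4 replicate 2 or control replicate 3 and 1 without control replicate 1, and with upper quartile scaling or library size alone 0 were lower and 4 or 5 higher. The part of these cell types in the values of the Fmo genes was not tested.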

How the data were processed

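Messenger RNA libraries from 3 CCl4 and 3 control livers were analysed, each made from 1.3 µg of RNA, per the labels' protocols. The deposited table holds whole-number counts of reads for each gene, not normalized by the authors. Per the series' design text the authors removed adapters, reads of low quality and reads rich in undetermined bases, and aligned with HISAT2. Counting was done with featureCounts, per the submitters' processing notes. Not given in the sources used here are tool versions, genome build, annotation, strand setting and the handling of reads with several matches. Symbols came from GENCODE M21 by identifier (52083 of 55359 Ensembl identifiers matched). The 443 rows with other identifiers held 0.543 to 0.679% of counts per library and stayed in the fit.

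Counts were tested with edgeR 4.0.16 in R 4.3.3 (filterByExpr, TMM, robust glmQLFit and glmQLFTest, no block), with p-values adjusted by Benjamini-Hochberg over 15579 genes. Standard errors are the log2 fold change over the square root of F. The fit was tested on simulated data. Alternatives were other scalings and filters, DESeq2 1.42.0, limma-voom (limma 3.58.1), a replicate block, and leaving out single libraries. The members and the 21 gene lists were chosen with earlier results of these data known. Named genes were, per list, the called gene of smallest p in each direction and the most abundant gene, of which the text gives a part, and for each member its 2 neighbours per side and 3 closest profiles. The ratios between members, the identity of coding sequences and the search for shared windows were added after the counts had been seen. Every pair of replicates differed by more than sampling noise. Protein sequences were not used here, and 1 further gene of the family and some genes that the rule names are not reported here.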

Additional observations from a re-analysis of the deposited data

How the results depend on the processing

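Fmo4 and Fmo5 kept their direction and their call under all 14 alternatives, with log2 fold changes of 0.56 to 0.87 for Fmo4 and 0.32 to 0.53 for Fmo5, and edgeR, DESeq2 or limma-voom adjusted p-values of 1.09e-06 to 0.0144 and 5.34e-05 to 0.0331. Fmo2 was not called under any of them (0.04 to 0.75). Fmo1 was called with upper quartile scaling (0.27) and library size alone (0.33). The number of genes lower in CCl4 livers was 1676 with library size alone, against 3124 with TMM, and the share of calls that were higher was 74.2% and 65.3% with library size alone and upper quartile scaling, against 51.4%. With each library left out the log2 fold change ran from 0.07 to 0.24 for Fmo1, 0.04 to 0.75 for Fmo2, 0.56 to 0.80 for Fmo4 and 0.32 to 0.48 for Fmo5. The labels do not say whether same-numbered libraries were paired. Correlations of their deviations from the group means were 0.0483, 0.00396 and 0.0635, against -0.0803 to 0.0365 for differently numbered libraries. These values cannot show whether such libraries shared more than a number. With the replicate block 3298 genes were higher and 3118 lower, against 3303 and 3124 without it, with Fmo4 at 0.71 and Fmo5 at 0.38, both called. Among 64 other named genes the direction turned in 9 of 896 refits, for genes without a call: Bcl9 (0.07 with upper quartile, 0.13 with library size alone, and -0.12 to 0.04 with each library left out, where it was 0.04 and 0.03 without CCl4 replicates 1 and 2 and 0.02 without control replicate 1), Bhmt (-0.001 to 0.55 with each library left out, lowest without CCl4 replicate 3), Ecm2 (-0.07 to 0.58, lowest without the same library), and Stab2, an endothelial gene (0.02 and 0.08 with upper quartile and library size alone). Without a turn of direction, a call was lost in 50 of the 896 refits and gained in 13. The cause of these shifts was not tested. Fmo2 and Fmo4 rest on 188 to 599 counts per library, so their counting error is larger, relative to the level, than that of Fmo5.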
